A study of Homo sapiens with 6 samples.

Results

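The circadian clock and PAR bZIP genes were followed after interleukin-1β was silenced in Cal27, a human cell line derived from squamous cell carcinoma of the tongue. The genes were chosen with earlier results of these data known. They were DBP, TEF, NFIL3, CLOCK, PER1, PER2, PER3, CRY1, NR1D2 and BHLHE40. Every probe set annotated to exactly 1 gene symbol among these 10 was taken, whatever its values. This gave 22 of the 54675 probe sets on the array, covering 9 genes. PER1 had no such probe set used here, because its 4 probe sets also carry a second symbol, so no PER1 value is given. The knockdown population (LV-shIL-1β) expressed an interleukin-1β hairpin from a lentivirus, and the control population (LV-shNC) expressed a scrambled one. Both populations had been kept for 2 weeks in puromycin at 2 µg/mL to select transduced cells, and each group had 3 Affymetrix Human Genome U133 Plus 2.0 arrays. A single hairpin sequence against interleukin-1β was described, and neither the hour of harvest nor any synchronisation of the cells is stated in the sources used here. Nothing says that the 3 arrays of each group were made from different cultures. The p-values therefore cover the spread between these arrays alone, and that spread may be technical.

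The circadian clock is a transcriptional feedback loop that runs in most cells of the body. CLOCK and its partner BMAL1 bind E-box sequences and switch on the period (PER), cryptochrome (CRY), REV-ERB and DEC genes, whose proteins in turn repress the loop. The PAR bZIP factors DBP, TEF and HLF carry the rhythm to output genes by activating D-box sequences, and NFIL3 represses the same sequences.

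The promoters of the genes bear these sequences unevenly. Windows from 250 bases before to 50 bases after each annotated start were taken from RefSeq (GRCh38.p14), and 14 windows matched all 9 genes. Both strands were searched for the E-box CACGTG, the E-prime box CACGTT, the D-boxes TTATGTAA and TTACGTAA, the cAMP response element TGACGTCA and the REV-ERB/ROR core TAGGTCA. At least 1 of these was present in 9 windows, and no matches overlapped. A D-box, which 1.011% of all 35116 windows hold in either form, was present in 1 window each of PER2, PER3 and NR1D2. PER3 and NR1D2 each had another window, which held no match and is not printed. The windows with a D-box are shown because they hold the sequence that DBP, TEF and NFIL3 bind. That of DBP is shown because DBP was the other gene past the test. All are printed 5′ to 3′ on the strand of the gene with the matched motifs in capitals. They are PER2 at chr2:238288561-238288860 (minus strand), PER3 at chr1:7784041-7784340 (plus strand), NR1D2 at chr3:23945871-23946170 (plus strand) and DBP at chr19:48637330-48637629 (minus strand).
PER2: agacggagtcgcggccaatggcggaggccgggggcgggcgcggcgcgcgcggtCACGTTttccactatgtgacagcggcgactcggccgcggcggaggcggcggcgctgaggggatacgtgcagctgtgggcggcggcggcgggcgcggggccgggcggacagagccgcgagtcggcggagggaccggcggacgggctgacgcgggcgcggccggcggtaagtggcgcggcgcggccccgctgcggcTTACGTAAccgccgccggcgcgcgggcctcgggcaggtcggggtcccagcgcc
PER3: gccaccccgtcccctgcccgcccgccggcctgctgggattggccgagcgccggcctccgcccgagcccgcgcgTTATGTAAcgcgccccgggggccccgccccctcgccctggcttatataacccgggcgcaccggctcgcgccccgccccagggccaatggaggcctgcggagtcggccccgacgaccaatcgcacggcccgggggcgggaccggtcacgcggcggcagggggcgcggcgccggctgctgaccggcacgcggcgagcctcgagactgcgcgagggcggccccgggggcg
NR1D2: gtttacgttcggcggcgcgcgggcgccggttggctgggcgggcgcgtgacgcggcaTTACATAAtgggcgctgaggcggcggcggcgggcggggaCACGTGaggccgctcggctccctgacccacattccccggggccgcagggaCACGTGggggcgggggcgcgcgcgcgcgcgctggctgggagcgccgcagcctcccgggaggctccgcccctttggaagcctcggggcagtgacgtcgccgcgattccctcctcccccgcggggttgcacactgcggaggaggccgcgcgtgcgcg
DBP: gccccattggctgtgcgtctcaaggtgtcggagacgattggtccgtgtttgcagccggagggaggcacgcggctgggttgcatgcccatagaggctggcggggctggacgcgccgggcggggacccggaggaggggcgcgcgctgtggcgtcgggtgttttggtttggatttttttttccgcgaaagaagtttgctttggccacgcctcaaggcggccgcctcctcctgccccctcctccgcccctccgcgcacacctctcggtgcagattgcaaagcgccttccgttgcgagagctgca

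In the PER2 window the capitals mark an E-prime box that begins 197 bases before the start and a D-box of the form TTACGTAA that begins 3 bases before it and runs across it. That form was in 0.1253% of all windows. The PER3 window holds 1 D-box of the form TTATGTAA, 177 bases before the start. The NR1D2 window holds a D-box on the opposite strand, 194 bases before the start and therefore printed as its reverse complement, and E-boxes 155 and 105 bases before it. TTATGTAA was in 0.8856% of all windows and CACGTG in 7.256%. The DBP window holds no match. Of the windows not printed, BHLHE40 had an E-box 245 bases before its start and both TEF windows had 1, at 195 and 193 bases. CACGTT, in 5.342% of all windows, was found in a window of CRY1, 89 bases before the start, and in a window of CLOCK, at 187 bases. An NFIL3 window held TAGGTCA 9 bases before the start, as did 1.848% of all windows, and TGACGTCA was in no window of these genes and in 1.848% of all. A match is only a match of letters and says nothing of binding in these cells.

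The targeted transcript checked the labels. IL1B had signals of 1569, 1569 and 1596 in LV-shIL-1β cells, against 2677, 2611 and 2494 in LV-shNC cells (probe set 205067_at), a log2 fold change of -0.72 ± 0.04 (SE). The adjusted p was 2.45e-05 (limma, Benjamini-Hochberg), and a second probe set gave -0.74 ± 0.04. Median signals lay between 18.4 and 18.9 on all 6 arrays. Squamous epithelial markers were measured for 5 of 7 genes, and their summed signal was 19545 to 19939 in LV-shIL-1β cells and 21496 to 22324 in LV-shNC cells. The sum over 6 of 6 fibroblast markers was 118 to 132 in LV-shIL-1β cells and 150 to 173 in LV-shNC cells, and that over 4 of 5 leukocyte markers was 91.7 to 95.3 in LV-shIL-1β cells and 68.3 to 74.1 in LV-shNC cells. For 4 of 4 endothelial markers it was 60.5 to 62.1 in LV-shIL-1β cells and 62.0 to 65.4 in LV-shNC cells. Within these lists the tested probe sets that passed were of KRT14 (log2 fold change -0.35), KRT5 (-0.32), COL1A1 (-1.08 and -0.73), COL1A2 (-0.53) and LUM (-1.14), all lower in LV-shIL-1β cells, and of CD14 (0.51), which was higher and the only leukocyte marker bright enough to be tested. Calls made up 25% of the 8 tested epithelial probe sets and 57.1% of the 7 tested fibroblast ones, against 7.06% of all tested. CDH1 (0.33 and 0.04), EPCAM (0.06) and SFN (-0.05, 0.01 and -0.04) did not pass, and the median of the epithelial list was -0.01. The other tested COL1A1 probe sets gave -0.04 and -0.16, with overlapping groups. The probe sets of 2 fibroblast genes, 3 leukocyte genes and 3 endothelial genes were too dim to be tested. The log2 ratio of 3′ to 5′ GAPDH probe sets, a sign of RNA integrity, was 0.04 ± 0.01 in LV-shIL-1β cells and -0.02 ± 0.03 in LV-shNC cells (SD, n = 3 each, exact permutation p = 0.1, the smallest possible, two-sided). The same ratio for ACTB was 0.39 ± 0.05 in LV-shIL-1β cells and 0.41 ± 0.13 in LV-shNC cells (SD, exact permutation p = 0.9, n = 3 each). The part of these marker and quality differences in the values that follow was not tested.

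Among the clock and PAR bZIP genes, PER2, a repressor in the core loop, was 28.5% higher in LV-shIL-1β cells on probe set 205251_at. DBP, the D-box activator, was 21.2% lower on 209782_s_at. The second probe set of each gene, too dim to be tested, did not show the change (log2 fold change -0.10 for PER2 and 0.07 for DBP). The other 11 probe sets that could be tested did not pass. A probe set was tested if at least 3 of the 6 arrays lay above a signal of 18.6, the median of all values. This left 13 of the 22 probe sets, at least 1 for each of the 9 genes, and each of the 13 lay above it on all 6 arrays. Of these 13, 1 was higher and 1 was lower at an adjusted p of 0.05, or 15.4%, against 7.06% of the 27546 probe sets tested on the array (3.68% higher and 3.37% lower). With so few members this was a difference of about 1 probe set from the background. Because the genes were chosen with earlier results known, this share and those below are not an unbiased comparison with the array. The groups did not overlap for 6 of the 13 probe sets (46.2%), against 27.9% of all tested, and 5 of 13 (38.5%) had an unadjusted limma p under 0.05, against 22.6% of all. The median log2 fold change was 0.03 over the 13 and 0.01 over all, and the median size of the change, without its sign, was 0.14 over the 13 and 0.09 over all. None of the 22 changed by more than 1.5-fold with an unadjusted limma p under 0.05, a rule that 0.472% of the array met. Bulk RNA cannot tell fewer cells expressing a gene from less RNA per cell.

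**Figure D1:**
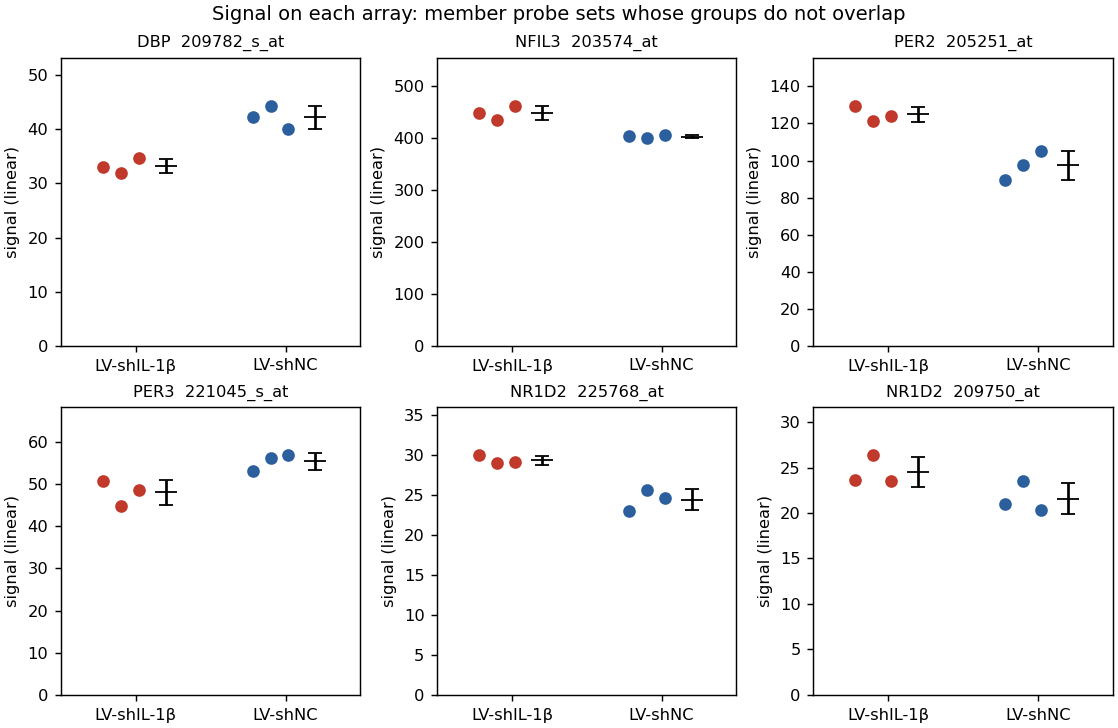
Signal (linear scale, from 0) on each array for the 6 tested probe sets of these genes whose groups did not overlap; points are arrays in replicate order, LV-shIL-1β in red and LV-shNC in blue, and the black bars are the mean ± SD of 3 arrays. PER2 was at 121 to 129 in LV-shIL-1β cells and at 89.3 to 105 in LV-shNC cells, and DBP was at 31.9 to 34.6 in LV-shIL-1β cells and at 40.0 to 44.3 in LV-shNC cells.

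Of the 3 D-box factors, DBP passed the test, and TEF and NFIL3 did not. DBP, which activates D-box genes and whose own transcript is among the strongest cycling outputs of CLOCK and BMAL1, had signals of 33.0, 31.9 and 34.6 in LV-shIL-1β cells, against 42.2, 44.3 and 40.0 in LV-shNC cells (probe set 209782_s_at). Every LV-shIL-1β array lay below every LV-shNC array. The means were 33.2 ± 1.37 in LV-shIL-1β cells and 42.2 ± 2.12 in LV-shNC cells (SD, n = 3 each). The log2 fold change was -0.34 ± 0.08 (SE), with an adjusted p of 0.0301 (limma, Benjamini-Hochberg). The 95% confidence interval of the change ran from -30.2% to -11.1%. With any 1 array left out the log2 fold change was -0.38 to -0.31, but the limma adjusted p was 0.0517 to 0.119, and it was 0.0537 with no filter on dim probe sets.

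A second DBP probe set, 209783_at, was too dim to be tested. It read 17.8, 20.5 and 18.3 in LV-shIL-1β cells and 19.3, 16.7 and 17.8 in LV-shNC cells, with overlapping groups. Without the filter its log2 fold change was 0.07 ± 0.10 (SE, limma adjusted p = 0.807). The 95% interval of that change ran from -0.154 to 0.301. That of 209782_s_at, also without the filter, ran from -0.526 to -0.162. The 2 intervals lay close but did not overlap, and the difference between the probe sets was not itself tested. Whether the low signal of 209783_at hid a change was not tested.

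TEF, the PAR bZIP relative of DBP, had overlapping groups. Its signal was 93.1, 101 and 102 in LV-shIL-1β cells and 107, 94.6 and 100.4 in LV-shNC cells (225840_at). The log2 fold change was -0.03 ± 0.07 (SE, limma adjusted p = 0.859), with a 95% interval from -0.19 to 0.13. The other 3 TEF probe sets were below the filter on all arrays, with means of 2.06 to 9.03 in LV-shIL-1β cells and 2.14 to 9.02 in LV-shNC cells.

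NFIL3, the bZIP repressor that competes at D-boxes, was measured by 1 bright probe set, 203574_at. Its signals were 448, 435 and 461 in LV-shIL-1β cells, against 403, 399 and 406 in LV-shNC cells. The groups did not overlap, and the LV-shNC arrays lay close together, with means of 448 ± 13.1 in LV-shIL-1β cells and 403 ± 3.44 in LV-shNC cells (SD, n = 3 each). A log2 fold change of 0.15 ± 0.05 (SE, 95% interval 0.05 to 0.26) did not pass, with an adjusted p of 0.0812 (limma, Benjamini-Hochberg). When each gene was taken as the mean of its tested probe sets, which changed both the number of features and the moderated spread, the limma adjusted p of NFIL3 was 0.0424, those of PER2 and DBP were 0.00505 and 0.00768, and 3 of the 9 genes passed (33.3%, against 12.5% of all 12313 genes in that fit).

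CLOCK, the activator that pairs with BMAL1, was read by 3 tested probe sets, and in all 3 the groups overlapped. The brightest, 227531_at, had signals of 152.2, 145.8 and 145.4 in LV-shIL-1β cells and 136.7, 133.4 and 145.6 in LV-shNC cells, a log2 fold change of 0.09 ± 0.06 (SE, limma adjusted p = 0.401). The other 2 gave 0.03 ± 0.06 and 0.03 ± 0.09 (limma adjusted p = 0.823 and 0.890). The fourth probe set, 217563_at, was below the filter on every array, at 8.99 ± 1.14 in LV-shIL-1β cells and 7.92 ± 0.34 in LV-shNC cells (SD, n = 3 each).

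PER2, whose protein joins the cryptochromes to repress CLOCK and BMAL1, had signals of 129, 121 and 124 in LV-shIL-1β cells, against 89.3, 97.8 and 105 in LV-shNC cells (205251_at). The lowest LV-shIL-1β array was above the highest LV-shNC array. The means were 125 ± 4.09 in LV-shIL-1β cells and 97.4 ± 7.88 in LV-shNC cells (SD, n = 3 each). The log2 fold change was 0.36 ± 0.07 (SE), with an adjusted p of 0.0187 (limma, Benjamini-Hochberg) and a 95% interval of 14.7% to 44.0% higher. The direction was the same in all 15 alternative settings, from 0.30 to 0.42 on the log2 scale. Most of these settings could not change it, because they keep the group means or because the groups did not overlap. The adjusted p rose above 0.05 when LV-shIL-1β array 2 (0.0675) or 3 (0.0635), or LV-shNC array 1 (0.0503) or 2 (0.0569), was left out.

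The second PER2 probe set, 208518_s_at, was likewise too dim to be tested, and its groups overlapped. Its signals were 17.2, 18.0 and 17.7 in LV-shIL-1β cells and 20.3, 17.3 and 19.3 in LV-shNC cells, and without the filter its log2 fold change was -0.10 ± 0.10 (SE, limma adjusted p = 0.700).

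PER3, a period protein with a lesser part in the core loop, had 4 probe sets, and none passed. On 221045_s_at its signals were 50.6, 44.7 and 48.7 in LV-shIL-1β cells, against 53.1, 56.1 and 56.8 in LV-shNC cells. The groups did not overlap, but the log2 fold change of -0.21 ± 0.08 (SE, 95% interval -0.38 to -0.04) did not pass, with an adjusted p of 0.140 (limma, Benjamini-Hochberg). Of the other 3 probe sets of PER3, all below the filter, 1555131_a_at read 14.5, 13.4 and 15.7 in LV-shIL-1β cells and 15.2, 19.2 and 18.7 in LV-shNC cells. Its groups overlapped, and its log2 fold change without the filter was -0.28 ± 0.12 (SE, limma adjusted p = 0.286). The remaining pair gave -0.15 ± 0.11 and -0.01 ± 0.10 at signals under 6.

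CRY1, the cryptochrome that forms the repressing complex with the PER proteins, had overlapping groups. Its signal was 130.1, 119.9 and 116 in LV-shIL-1β cells and 111, 136 and 116 in LV-shNC cells (209674_at). The log2 fold change was 0.01 ± 0.09 (SE, limma adjusted p = 0.944), with a 95% interval from -0.18 to 0.21. Its sign changed after quantile normalization, with array weights and with some arrays left out, but not after median centring.

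NR1D2, which encodes REV-ERBβ, a nuclear receptor that represses BMAL1, had positive log2 fold changes on both of its probe sets, and neither passed. On 225768_at the signals were 30.0, 29.1 and 29.1 in LV-shIL-1β cells, against 23.0, 25.7 and 24.6 in LV-shNC cells, with no overlap. The log2 fold change was 0.27 ± 0.08 (SE, 95% interval 0.08 to 0.45) with an adjusted p of 0.0877 (limma, Benjamini-Hochberg). On 209750_at the signals were 23.6, 26.4 and 23.6 in LV-shIL-1β cells and 21.0, 23.5 and 20.3 in LV-shNC cells. These groups were separated by less than the spread within either of them, and the log2 fold change was 0.18 ± 0.10 (SE, limma adjusted p = 0.299).

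BHLHE40, the DEC1 repressor that binds E-boxes and answers to many signals outside the clock, had overlapping groups on both probe sets. The bright one, 201170_s_at, read 296, 270.1 and 279 in LV-shIL-1β cells and 260.4, 276 and 308 in LV-shNC cells, a log2 fold change of 0.01 ± 0.07 (SE, limma adjusted p = 0.974). The sign of this value changed after quantile normalization, with array weights and with some arrays left out, but not after median centring. The dim one, 201169_s_at, read 27.6, 37.6 and 33.0 in LV-shIL-1β cells and 28.5, 33.0 and 27.5 in LV-shNC cells, with 0.14 ± 0.12 (SE, limma adjusted p = 0.558).

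**Figure D2:**
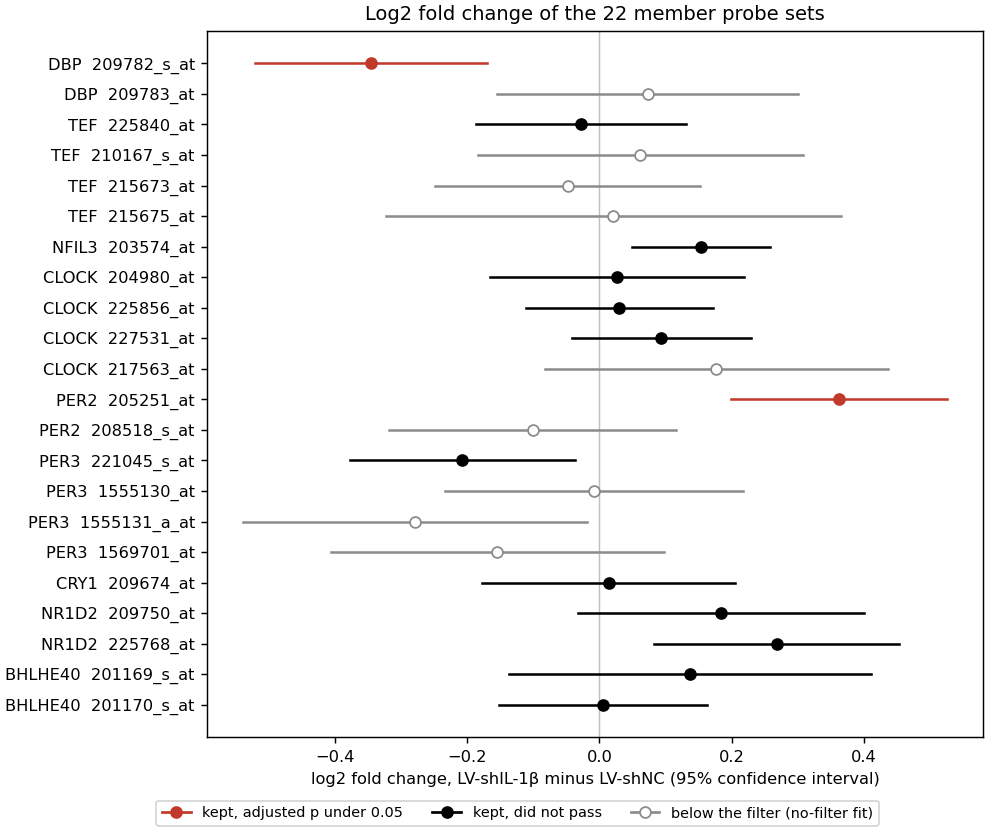
Log2 fold change (LV-shIL-1β minus LV-shNC, x axis) with its 95% confidence interval for all 22 probe sets, grouped by gene; red marks a tested probe set past the adjusted p of 0.05, black a tested one that did not pass, and open grey circles those below the filter, fitted with no filter. PER2 205251_at (0.36) and DBP 209782_s_at (-0.34) lie farthest from 0 among the tested probe sets, and the dimmer probe sets of PER2 (-0.10) and DBP (0.07) lie near 0.

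The 3 genes with a D-box in a printed window read 0.36 (PER2, 205251_at), 0.27 and 0.18 (NR1D2) and -0.21 (PER3, 221045_s_at) on the log2 scale, with 1 of the 3 past the test. The 3 genes with an E-box CACGTG in a window read 0.27 and 0.18 (NR1D2), 0.01 and 0.14 (BHLHE40) and -0.03 (TEF), and none passed. DBP, with no match in its window, was at -0.34. Over the whole array 7.06% of tested probe sets passed. Below the filter, in the no-filter fit, PER2 read -0.10, PER3 -0.28, -0.15 and -0.01, TEF 0.06, -0.05 and 0.02, and DBP 0.07. With 3 genes for each motif, a link between motif and change was not tested.

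The count of calls among other clock genes was near the background. Of a list of 13 further factors and repressors, 11 genes had 33 probe sets, of which 11 (7 genes) could be tested, and 1 was higher and none lower (9.09%, against 7.06% of all tested). A positive log2 fold change was found for 9 of the 11, against 14649 of all 27546, and the median was 0.10. The probe set that passed was of BHLHE41, which encodes DEC2, the paralogue of BHLHE40. Its signals were 37.0, 35.0 and 32.2 in LV-shIL-1β cells, against 25.7, 25.4 and 29.7 in LV-shNC cells, with no overlap, and its log2 fold change was 0.37 ± 0.10 (SE, limma adjusted p = 0.0473). The call was lost in 9 of 15 alternative settings, and among the left-out arrays it held only without LV-shNC array 3 (limma adjusted p = 0.0451 to 0.156). BMAL1, the partner of CLOCK, gave 0.11 ± 0.07 and 0.09 ± 0.08 on its 2 tested probe sets (limma adjusted p = 0.395 and 0.552). CRY2 gave 0.07 ± 0.08 (limma adjusted p = 0.625), and the 3 probe sets of HLF had signals of 3.10 to 4.74 on all arrays, below the filter. NR1D1, the paralogue of NR1D2, has 3 probe sets here that carry a second symbol, so no value is named. The kinases, phosphatase and ubiquitin enzymes that set the stability of PER and CRY proteins had 32 tested probe sets of 9 genes, and limma called none of them at the adjusted threshold. At an unadjusted p under 0.05 there were 3 by limma (9.38%, against 22.6% of all tested) and 3 by the methods' t-test (against 19% of all tested). Their median log2 fold change was -0.05.

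Glucocorticoids and cAMP are known inputs to the period genes. Glucocorticoid-induced genes had 17 tested probe sets of 9 genes, of which 1 was higher and 3 (2 genes) were lower (23.5%, against 7.06% of all tested). The median log2 fold change of the list was -0.14. TSC22D3, which encodes the glucocorticoid-induced leucine zipper GILZ, had signals of 142, 129 and 143 in LV-shIL-1β cells, against 201, 195 and 201 in LV-shNC cells (208763_s_at). The groups were far apart, and the log2 fold change was -0.53 ± 0.06 (SE, limma adjusted p = 0.0016). A second probe set of TSC22D3 gave -0.31 ± 0.08 (limma adjusted p = 0.0499), a call lost in 11 of 15 settings, among them each array left out (0.0615 to 0.160). SGK1, a serum- and glucocorticoid-regulated kinase, was lower by a small amount, with a log2 fold change of -0.14 ± 0.03 (SE, limma adjusted p = 0.0404) whose call was lost in 11 of 15 settings. With 1 array left out it held only without LV-shIL-1β array 1 (limma adjusted p = 0.0451 to 0.161). DUSP1, a phosphatase of MAP kinases, went the other way on 201041_s_at, at 219, 210 and 182 in LV-shIL-1β cells and 140, 114 and 115 in LV-shNC cells, a log2 fold change of 0.73 ± 0.10 (SE, limma adjusted p = 0.0024). Its other 2 tested probe sets gave 0.01 and 0.11 with overlapping groups.

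CREB targets and immediate-early genes had 16 tested probe sets of 7 genes, of which 1 was higher and 1 lower (12.5%, against 7.06% of all tested, a gap of about 1 probe set). The list's median log2 fold change was 0.04. SIK1, a kinase induced by cAMP that restrains CREB coactivators, had signals of 314, 339 and 293 in LV-shIL-1β cells, against 394, 420.0 and 429 in LV-shNC cells. The groups did not overlap, and the log2 fold change was -0.40 ± 0.06 (SE, limma adjusted p = 0.0065). The other tested SIK1 probe set, 232470_at, had overlapping groups and a log2 fold change of -0.05 ± 0.13 (SE, limma adjusted p = 0.849). FOS, the immediate-early partner in AP-1, varied more between arrays, with 124, 85.2 and 73.1 in LV-shIL-1β cells and 66.1, 37.0 and 39.3 in LV-shNC cells. Its log2 fold change was 1.00 ± 0.23 (SE, limma adjusted p = 0.0313), and the call was lost in 6 of 15 settings. These included leaving out LV-shIL-1β array 1 or 2 or LV-shNC array 2 or 3 (limma adjusted p up to 0.108).

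Output genes of the clock and of the PAR bZIP factors, chosen mostly from mouse liver, had 14 tested probe sets of 8 genes. The result was 2 higher and none lower (14.3%, against 7.06% of all tested), and the list's median log2 fold change was 0.13. Both calls were of 1 gene, NAMPT, the enzyme of NAD salvage and a target of CLOCK and BMAL1. On 243296_at NAMPT had signals of 135, 128 and 132 in LV-shIL-1β cells, against 108, 86.5 and 108 in LV-shNC cells, a log2 fold change of 0.39 ± 0.09 (SE, limma adjusted p = 0.0300). The brighter 217739_s_at gave 0.24 ± 0.06 (limma adjusted p = 0.0480). Its other 2 tested probe sets gave 0.19 and 0.10 and did not pass (limma adjusted p = 0.0729 and 0.415), so NAMPT was positive on all 4, with calls on 2. The call of 243296_at was lost in 7 of 15 settings, among them the leaving out of any LV-shIL-1β array or of LV-shNC array 2 (limma adjusted p up to 0.0993), and that of 217739_s_at in 11, among them each array left out (0.0617 to 0.176). WEE1, the cell-cycle kinase controlled by the clock in mouse liver, gave -0.05 and -0.07 (limma adjusted p = 0.691 and 0.603).

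**Figure D3:**
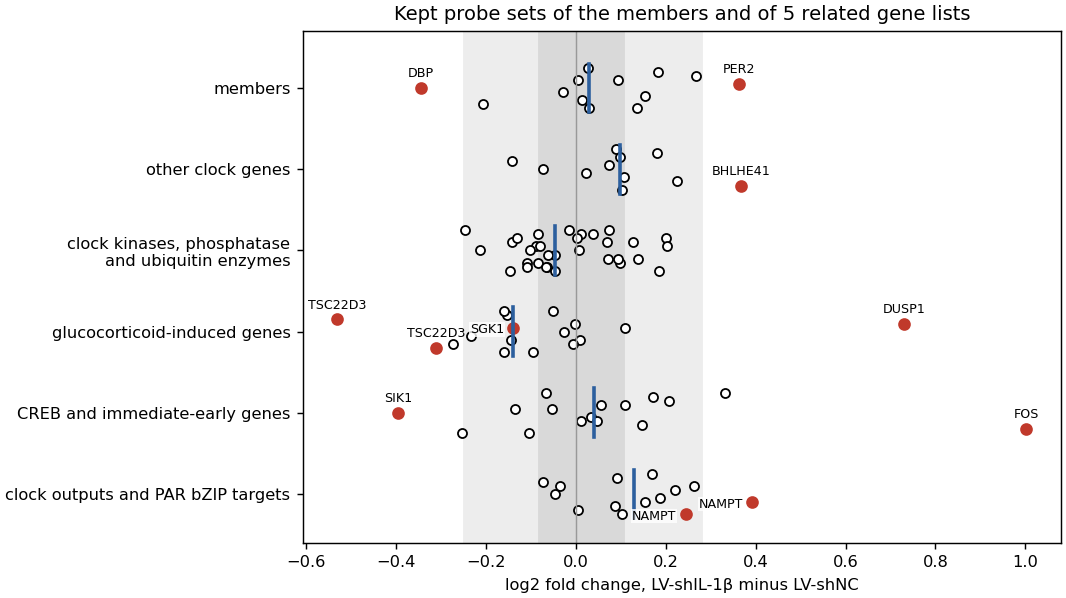
Log2 fold change (LV-shIL-1β minus LV-shNC, x axis) of the tested probe sets of the clock and PAR bZIP genes (members) and of 5 related lists; each circle is a probe set, filled red and named where the adjusted p was under 0.05, the blue bars are list medians, and the dark and light grey bands hold the middle 50% and 90% of all 27546 tested probe sets. Most circles lie within the light band, from -0.25 to 0.28, and the medians run from -0.14 for glucocorticoid-induced genes to 0.13 for outputs.

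**Figure D4:**
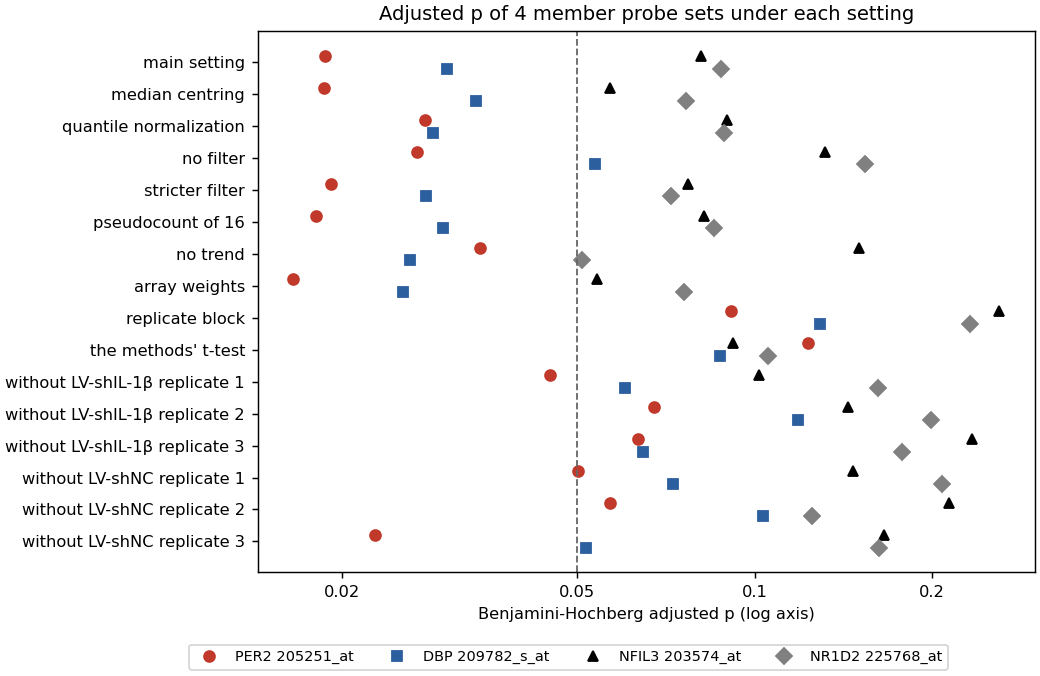
Benjamini-Hochberg adjusted p (x axis, log scale) of PER2, DBP, NFIL3 and NR1D2 probe sets in the main and 15 alternative settings (rows), with the threshold of 0.05 as a dashed line. PER2 lay under the threshold in 9 of the 15 alternatives and DBP in 6, and NFIL3 and NR1D2 in none.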

How the data were processed

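RNA of Cal27 cells was measured on 6 arrays, and groups were taken from the sample labels. The authors deposited linear intensities, with 1 value for each probe set on each array. The submitters' processing notes name MAS5, and no source used here gives its settings, scaling or version. Of the 328050 values, 4.36% carried 1 of 6 decimal endings that were 0.167 apart (0.06% would by chance), so the values may also have been processed across arrays, which could lower the spread between them. No detection calls were used here.

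After the 62 control probe sets were left out, probe sets with at least 3 of 6 arrays above 18.6 were kept, and log2 values of LV-shIL-1β minus LV-shNC were fitted with limma 3.58.1 in R 4.3.3 (lmFit and eBayes with trend, two-sided), with Benjamini-Hochberg adjustment over all 27546 kept probe sets and a threshold of 0.05. For single values an exact permutation test was used. Precision is limited by the number of arrays. The scripts were tested on simulated data. Probe sets were named from the platform annotation, in which 41097 had 1 symbol, 1801 several and 11777 none. Of the first, 41043 had a gene ID in the RefSeq table, and 0 symbols changed. A probe set with several symbols was given no name.

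The rule for named genes took every probe set of the members, the probe sets of the related lists that passed, and BMAL1, NR1D1, CRY2 and HLF. WEE1, RORA, the dimmer probe sets of DUSP1 and SIK1 and the NAMPT probe sets that did not pass were added after their values were seen. The members and lists were chosen with earlier results of these data known. Alternatives were median centring, quantile normalization, no filter, a filter requiring all 6 arrays, a pseudocount of 16, no trend, array weights, a replicate block, the methods' t-test, the mean of a gene's probe sets, a fold over 1.5 with an unadjusted p, and leaving out each array.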

Additional observations from a re-analysis of the deposited data

How the results depend on the processing

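Of 195 alternative values of the 13 tested clock and PAR bZIP probe sets, 178 kept their direction, 17 changed it and 0 gained a call. The filter settings, no trend, the replicate block and the t-test leave the log2 fold change itself as it was and could not change its direction. Leaving out 1 array could not reverse it where the groups did not overlap. The count of kept directions is therefore partly fixed in advance. The fit on gene means is not among the 195 values, and in it NFIL3 passed as well (limma adjusted p = 0.0424). The changes of direction were in values near 0: BHLHE40 201170_s_at was -0.0121 after quantile normalization, -0.0402 with array weights and -0.0486 to 0.0723 with 1 array left out; CRY1 was -0.0161, -0.0172 and -0.0449 to 0.102 in these settings. CLOCK 204980_at was -0.0179 with array weights and -0.0230 to 0.0992 with 1 array left out, TEF 225840_at was 0.0037 and -0.0715 to 0.0166, and CLOCK 225856_at was -0.0014 after quantile normalization. The number of these probe sets called, 2, was 1 with no filter, 0 with the replicate block, 0 by Student's t-test, 0 by either rule of a fold over 1.5, and 0 to 1 with 1 array left out. DBP lost its call with no filter, the replicate block (limma adjusted p = 0.129), the t-test and every array left out, and PER2 with the replicate block (limma adjusted p = 0.0912), the t-test and the 4 left-out arrays named above. The other clock probe sets called, 1, were 0 with array weights, 0 with the replicate block, 0 by the t-test and 0 to 1 with 1 array left out. With no filter the count was also 1, but the call was of RORA 226682_at and not of BHLHE41. That RORA probe set was far below the filter, with means of 4.93 in LV-shIL-1β cells and 2.70 in LV-shNC cells (log2 fold change 0.87, limma adjusted p = 0.00096). DUSP1, SIK1 and the brighter TSC22D3 probe set lost their calls by the t-test alone, among 15 alternatives. Over the whole array the 1944 calls were 568 with the replicate block, 267 by the t-test and 694 to 1807 with 1 array left out, 694 of them without LV-shIL-1β array 2. Same-numbered arrays did not deviate together over all tested probe sets (correlations of -0.39, -0.11 and -0.21, and 0 of 6 arrays matched its own number best). Such a correlation cannot exclude pairing in single genes. With the replicate block the SE of FOS was 0.09, against 0.23 in the main setting, and that of PER2 was 0.09, against 0.07. Median centring and quantile normalization shifted the median of all log2 fold changes by 0.01 and -0.01. The cause of these losses was not tested, except that leaving out an array also leaves fewer arrays to estimate the spread.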
